A study of Bos taurus with 6 samples.

Results

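Among the transcripts of day-7 bovine blastocysts was a set of 85 probe sets, for 84 genes, that were brighter on superovulated array 3 and synchronized array 2, called the bright pair below, than on superovulated arrays 1 and 2 and synchronized array 1, called the dim arrays. The names are relative: 18 of the 85 read at least log2 4 on all 3 dim arrays. A probe set is the group of short probes on the array that reads 1 transcript. The 85 were chosen from the signals themselves. A probe set qualified when it carried 1 gene symbol and when the lower of superovulated array 3 and synchronized array 2 exceeded the highest of superovulated arrays 1 and 2 and synchronized array 1 by at least 1.5 log2 units. HMGCS1, EED, CKS1B, CNOT7, ZFP36L1, KPNA7 and the zona pellucida (ZP) genes were set aside by name. Of 24016 probe sets that were not controls, 7.76% had a margin above 0, in the same direction, and 133 passed 1.5 (0.554%), 91 of them with 1 symbol, and 6 of those were set aside. The 85 are thus drawn from 13292 probe sets with 1 symbol, which cover 9155 genes.

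The superovulated group held blastocysts that stayed until day 7 in superovulated Simmental heifers. The synchronized group held embryos of superovulated and inseminated donors that were flushed on day 2 at the 2-cell stage, transferred through an endoscope into recipients that had been synchronized only, and recovered on day 7. All embryos of both groups therefore came from superovulated, inseminated donors, and the early transfer was made in the synchronized group. Each group had 3 arrays. The sources used here give neither the number of embryos per array nor whether the arrays came from separate animals, so p-values reflect only how far these arrays scatter, which may be a technical matter. In RNA that was not separated by cell type, fewer cells of a type and less RNA per cell cannot be told apart. Signals below are the deposited log2 values, given for each group in order of array number.

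The genes after which the set was named, which are not all those with the widest margin, have well studied roles. HIF1A encodes the oxygen-labile subunit of hypoxia-inducible factor, which is destroyed in well oxygenated cells after prolyl hydroxylation and otherwise pairs with ARNT to activate genes of glycolysis, blood supply and collagen modification. MSX1 is a homeobox repressor downstream of bone morphogenetic proteins, and PRICKLE1 is a core protein of planar cell polarity. SMARCA1 is an ATPase of the ISWI family, which spaces nucleosomes. UCHL1 is a ubiquitin hydrolase abundant in neurons and in germ cells, and TNFAIP6 crosslinks hyaluronan in the matrix that cumulus cells build around the ovulated oocyte. The set was defined by arrays and not by cell type.

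Libraries that stand apart bear on every value below. Probe sets brighter than log2 4 numbered 1457, 1578 and 1894 in the superovulated group and 973, 1850 and 1184 in the synchronized group, so the pair of arrays on which the 85 were bright also had the most bright probe sets. The mean of the 85 was 3.67, 3.85 and 6.14 in superovulated and 3.73, 7.22 and 4.79 in synchronized blastocysts. Hybridization controls averaged 12.22 to 12.27 in the superovulated and 12.54 to 13.23 in the synchronized group, with the highest value on synchronized array 3. The 3' GAPDH control probe set read 8.67, 8.80 and 9.14, against 7.20, 8.35 and 8.22 in the synchronized group, while its 5' counterpart read 2.60 to 3.03 on every array. The 3' control probe set of the elongation factor gene EEF1A1 read 2.82, 3.20 and 4.65, against 2.67, 4.37 and 2.93. It was thus highest on the same pair of arrays, whereas its middle and 5' probe sets stayed between 2.77 and 3.26. Over all probe sets superovulated array 3 correlated with synchronized array 2 at 0.892, while synchronized array 2 correlated with arrays 1 and 3 of its own group at 0.752 and 0.865. The same did not hold for superovulated array 3, which correlated more closely with arrays 1 and 2 of its own group, at 0.928 and 0.936. Whether the bright pair shared an RNA pool, an amplification or a scan is not stated in the labels, so a shared batch cannot be told apart from the pattern. The part of RNA quality and of overall brightness in it was not tested.

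**Figure D1:**
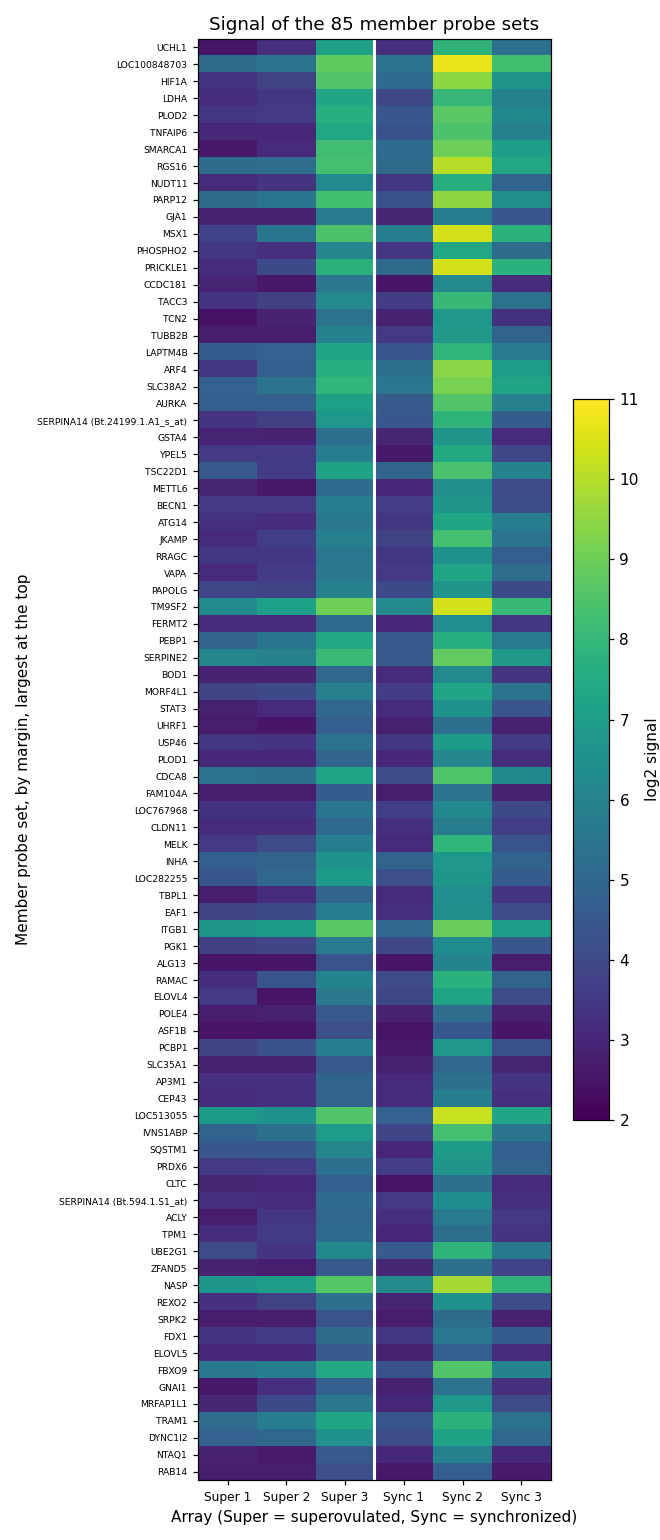
Log2 signal of the 85 member probe sets (rows, widest margin at the top) on the 3 superovulated arrays (left) and the 3 synchronized arrays (right), by colour. Superovulated array 3 and synchronized array 2 are bright by the choice of members, and synchronized array 3, which that choice did not read, lies between them and the dim arrays for most rows near the top.

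HIF1A read 3.37, 3.73 and 8.54 in superovulated blastocysts, against 5.14, 9.47 and 6.68 in synchronized ones. MSX1 read 3.80, 5.50 and 8.48 in the superovulated group, against 5.80, 10.38 and 7.78 in the synchronized group. Both genes were high on the bright pair and the groups overlapped, as the rule requires of every member, and MSX1 was also high on synchronized array 3, which the rule did not read. PRICKLE1 had 3.17, 4.01 and 7.78 in the superovulated group, against 5.10, 10.38 and 7.74 in the synchronized group. Here synchronized array 3 came within 0.04 of superovulated array 3. SMARCA1 had 2.60, 3.10 and 8.24 in superovulated, against 5.13, 9.03 and 7.04 in synchronized embryos. Its margin was 3.11, and superovulated arrays 1 and 2 lay near background.

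UCHL1 had the widest margin, 3.90. Its signals were 2.56, 3.20 and 7.12 in the superovulated group and 3.22, 7.85 and 5.31 in the synchronized group, so that all 3 dim arrays lay below log2 4. PLOD2, a lysyl hydroxylase that prepares collagen for crosslinking, gave 3.43, 3.53 and 7.66 in superovulated and 4.44, 8.70 and 6.20 in synchronized embryos. TNFAIP6 gave 3.05, 2.99 and 7.38 in superovulated and 4.25, 8.47 and 5.96 in synchronized embryos. For PLOD2 and TNFAIP6 synchronized array 1 was the highest of the dim arrays, by about 1 unit. In all, 8 probe sets had a margin of at least 3 and 32 a margin of at least 2. Of the 85, 50 were below log2 4 on all 3 dim arrays, where GCRMA values are compressed and the size of a margin is uncertain.

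**Figure D2:**
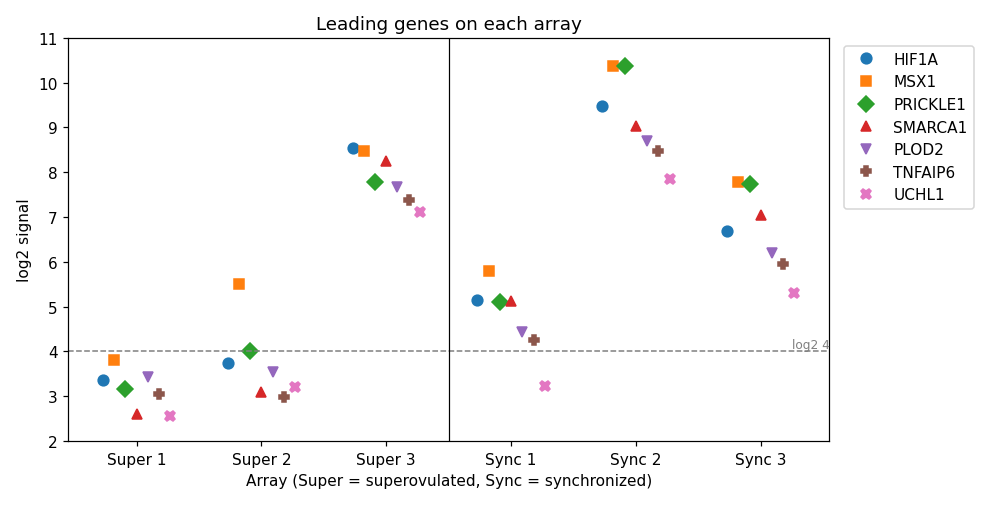
Log2 signal (vertical axis) of HIF1A, MSX1, PRICKLE1, SMARCA1, PLOD2, TNFAIP6 and UCHL1 on the 3 superovulated arrays (left of the line) and the 3 synchronized arrays (right), 1 point per gene and array, with log2 4 dashed. Each gene is highest on synchronized array 2, and 6 of the 7 have superovulated array 3 clearly second, while PRICKLE1 has superovulated array 3 and synchronized array 3 at 7.78 and 7.74.

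The order within the bright pair was not fixed by the rule. Synchronized array 2 was brighter than superovulated array 3 in 84 of the 85 members (98.8%), against 61.5% of all probe sets, 38.5% of the 1406 with a mean above log2 4 and 35.8% of these once members are set aside. The median gap was 1.10 log2 units, and in 47 members it was at least 1. The widest gap, 2.60, belonged to PRICKLE1, followed by JKAMP at 2.41, MELK at 2.05, LOC100848703 at 1.92 and MSX1 at 1.90. The exception was LOC282255, listed in the gene table with the synonym IFITM3, an interferon-induced membrane protein, at 6.92 on superovulated array 3 and 6.75 on synchronized array 2. These are single arrays, so the order is a description with no test. The rule read both arrays, and the shares over other probe sets were not limited to those bright on both.

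Synchronized array 3 took no part in the rule. It exceeded all 3 dim arrays in 79 of the 85 members (92.9%), against 43.1% of all probe sets and 21.9% of those with a mean above log2 4. It exceeded them by at least 1.5 in 18 members (21.2%), against 0.121% of all probe sets and 1.85% of the brighter ones. Both counts rest on the same 3 dim arrays that the rule read, and on 1 array, so neither is tested. The median excess of synchronized array 3 over the highest dim array was 0.40, with a range of -0.45 to 2.90. The excess was at least 1 in 24 of the 32 members with a margin of 2 or more and in 5 of the 53 with a smaller one. In 84 members synchronized array 3 stayed below the lower of the bright pair. ATG14, which recruits the lipid kinase that starts autophagosomes, was the exception, with 5.60 on superovulated array 3, 7.29 on synchronized array 2 and 5.81 on synchronized array 3.

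**Figure D3:**
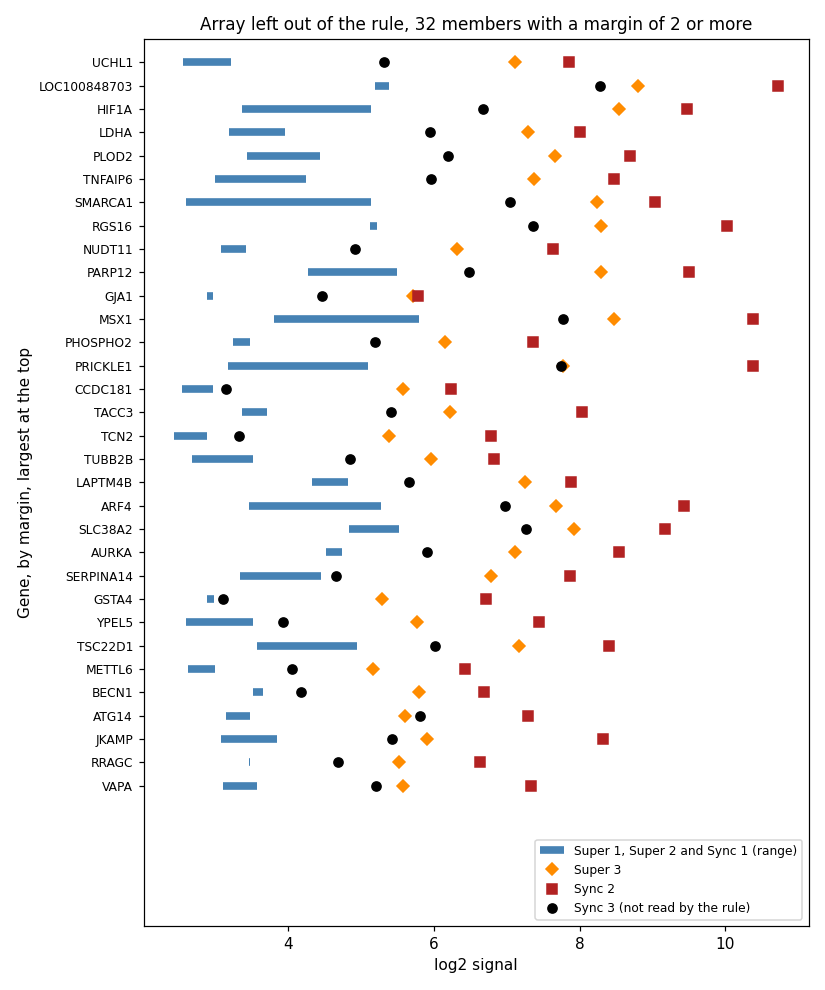
Log2 signal (horizontal axis) of the 32 members with a margin of at least 2 (rows): the range over superovulated arrays 1 and 2 and synchronized array 1 as a bar, superovulated array 3 as a diamond, synchronized array 2 as a square and synchronized array 3 as a circle. The circle lies to the right of the bar in each of the 32 rows and to the left of the diamond in all but ATG14.

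The members are described below by role. The roles were assigned after the values were seen, and all 84 genes are counted. Genes of oxygen sensing, glycolysis and collagen crosslinking were HIF1A, LDHA, PGK1, PLOD2 and PLOD1. LDHA, the lactate dehydrogenase subunit that regenerates NAD+ when glucose is fermented, read 3.18, 3.46 and 7.29 in the superovulated group, against 3.96, 8.01 and 5.95 in the synchronized group. PGK1, which makes ATP in glycolysis, read 3.70, 3.89 and 5.70, against 3.95, 6.39 and 4.45 in synchronized embryos. For LDHA synchronized array 3 stood 1.99 above the highest dim array, whereas for PGK1 it stood 0.50 above. PLOD1 read 3.0, 3.05 and 4.93 in superovulated and 3.03, 6.15 and 3.17 in synchronized embryos, so its signal was confined to the bright pair.

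In a list of 28 measured textbook targets of hypoxia-inducible factor, 0 passed the test between the groups in either direction, and the median difference was -0.02, the value of all probe sets. PLOD2, LDHA and PGK1 were members, and 2 further genes had a margin between 1 and 1.5: P4HA1 (1.46), a collagen prolyl hydroxylase, and BNIP3 (1.35), a mitophagy receptor. A margin of at least 1 was found for 1.32% of all probe sets, but nothing is read from the 5 of 28, since 3 of them were chosen by that margin and the list was drawn up with HIF1A and PLOD2 already known as leading genes. P4HA1 read 2.39, 2.57 and 4.16 in the superovulated group and 2.70, 5.46 and 3.87 in the synchronized group. A margin above 0 was found in 10 of the 28, and other targets did not share the pattern. INSIG2 and ALDOA were higher on each superovulated array than on any synchronized one, with margins of -1.53 and -1.0. Their group differences were 1.62 and 0.82 (limma adjusted p = 0.161 and 0.163). The adrenomedullin gene ADM had 5.01, 4.78 and 5.40, against 5.39, 5.77 and 5.86. The growth factor gene VEGFA stayed below 3 on every array. Among 14 measured subunits and regulators, 0 passed in either direction. HIF1A was the only member, and its partner ARNT read 2.47 to 2.49 in the superovulated and 2.48 to 2.75 in the synchronized group. EGLN1, the prolyl hydroxylase that marks the HIF1A protein for destruction, read 4.83, 5.08 and 5.23, against 5.31, 5.98 and 5.24, on its brightest probe set.

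Of 17 measured collagen-modifying enzymes 0 passed in either direction, and PLOD1, PLOD2 and P4HA1 were the 3 with a margin of at least 1. The third lysyl hydroxylase gene, PLOD3, stayed below log2 4 on every array, with 2.64 to 2.75 in the superovulated and 2.76 to 2.89 in the synchronized group.

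Secreted and cell-surface proteins made up 10 probe sets of 9 genes. GJA1, which encodes the gap junction protein connexin 43, read 2.90, 2.88 and 5.72 in superovulated embryos, against 2.96, 5.78 and 4.46 in synchronized embryos. INHA, the inhibin alpha subunit made by granulosa cells, read 4.79, 4.85 and 6.64, against 4.85, 6.79 and 4.87. INHA was nearly equal on all 4 arrays outside the bright pair, and GJA1 was not, since synchronized array 3 lay well above the dim arrays. SERPINE2, a secreted protease inhibitor known from bovine granulosa cells, read 6.11, 5.95 and 8.05, against 4.53, 8.84 and 6.88 in the synchronized group. SERPINA14, the uterine milk protein of ruminants, was the gene with 2 member probe sets, whose margins were 2.34 and 1.63. The brighter of them read 3.34, 3.71 and 6.79 in superovulated and 4.45, 7.87 and 4.65 in synchronized embryos. The integrin chain gene ITGB1, the cobalamin carrier gene TCN2, the tight junction gene CLDN11 and LOC282255 had margins of 1.75 to 2.51, and TNFAIP6, given above, completes this group. TCN2 read 2.43, 2.86 and 5.39 in the superovulated and 2.88, 6.79 and 3.33 in the synchronized group, so synchronized array 3 lay nearer to the dim arrays.

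Patterning, transcription and signalling genes numbered 10. RGS16, which shortens signalling through G proteins, read 5.19, 5.22 and 8.30 in the superovulated group, against 5.12, 10.03 and 7.36 in the synchronized group. LOC513055, listed in the gene table with the synonym RGS2, read 6.89, 6.62 and 8.56, against 4.82, 10.26 and 7.30. The first had 3 dim arrays at one level, whereas in the second synchronized array 1 was about 2 units dimmer than superovulated arrays 1 and 2. STAT3, the transcription factor of cytokine receptors, read 2.78, 3.07 and 5.02, against 3.11, 6.60 and 4.40 in synchronized embryos. The others were MSX1, PRICKLE1, the transcription factor gene TSC22D1, TBPL1, a relative of the TATA-binding protein, EAF1 of transcript elongation, the G protein gene GNAI1 and PEBP1, an inhibitor of RAF kinase. In this role the median gap of synchronized array 2 over superovulated array 3 was 1.52, against 1.10 over all members. Synchronized array 3 exceeded the dim arrays in 10 of 10, against 79 of all 85 members (92.9%) and 43.1% of all probe sets.

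Other genes of the pathways of MSX1 and PRICKLE1 mostly lay at background. Of 17 measured genes of MSX and bone morphogenetic protein signalling 2 exceeded log2 4 on any array, MSX1 and ID3, and 0 passed in either direction. ID3, a target of this pathway, read 3.15, 2.71 and 4.11 in the superovulated and 2.47, 3.95 and 3.60 in the synchronized group. Of 13 measured genes of planar polarity and non-canonical WNT signalling 0 passed by their brightest probe set. DVL2, the cytoplasmic transducer next to PRICKLE1 in the pathway, had a margin of 1.44, with 4.18, 4.59 and 6.03 in superovulated and 4.29, 6.56 and 5.46 in synchronized embryos. RAC1, a small GTPase, had a margin of 1.42 on 1 probe set, with 5.69 on superovulated array 3 and 6.30 on synchronized array 2. Its other probe set separated the groups instead, at 4.03, 4.13 and 3.98 in superovulated and 2.84, 2.91 and 2.94 in synchronized embryos (difference 1.15, limma adjusted p = 0.00941), so the probe sets of RAC1 disagree.

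Chromatin and DNA replication genes were SMARCA1, UHRF1, which guides maintenance DNA methylation, MORF4L1, a reader of methylated histone H3, the histone chaperone genes ASF1B and NASP, and the DNA polymerase epsilon subunit gene POLE4. NASP read 6.74, 7.04 and 8.63 in the superovulated group, against 6.28, 9.80 and 7.86 in the synchronized group, and was bright on every array. UHRF1 read 2.71, 2.55 and 4.70, against 2.79, 5.32 and 2.82, and ASF1B was similarly confined to the bright pair. In the list of 18 measured ISWI and related remodelling genes SMARCA1 was the only member, and 0 passed in either direction. SMARCA5, its close relative in the ISWI family, read 6.20, 6.60 and 6.24, against 6.30, 5.18 and 5.90 in synchronized embryos. SMARCA5 was thus lowest on synchronized array 2, where SMARCA1 was highest. RBBP7, a histone-binding subunit found with SMARCA1, read 7.18, 7.27 and 8.69 in superovulated and 5.15, 10.12 and 7.47 in synchronized embryos, with a margin of 1.42.

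Mitosis and microtubule genes numbered 8. AURKA, the kinase of spindle poles, read 4.71, 4.74 and 7.12 in superovulated embryos, against 4.52, 8.54 and 5.91 in synchronized embryos. TACC3, which AURKA brings to spindle microtubules, read 3.36, 3.71 and 6.22, against 3.57, 8.03 and 5.41. Both stood more than 1 unit above the dim arrays on synchronized array 3. MELK, a mitotic kinase, read 3.50, 4.09 and 5.89, against 3.08, 7.94 and 4.35, so it lay close to the dim arrays there. CDCA8 of the chromosomal passenger complex, BOD1 of chromosome biorientation, the centrosomal gene CEP43, the tubulin gene TUBB2B and the dynein chain gene DYNC1I2 had margins of 1.52 to 2.44. TUBB2B, the widest of these, read 2.75, 2.68 and 5.96 in superovulated and 3.52, 6.83 and 4.85 in synchronized embryos.

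Ubiquitin, autophagy and lysosome genes numbered 12. Synchronized array 3 exceeded the dim arrays in 12 of 12, against 79 of all 85 members (92.9%) and 43.1% of all probe sets. Several other roles had a full count too, so it is not particular to this one. BECN1, a scaffold of the lipid kinase complex that ATG14 directs to autophagosomes, read 3.52, 3.51 and 5.79 in the superovulated group, against 3.65, 6.69 and 4.17 in the synchronized group. SQSTM1, the cargo receptor that links ubiquitin to autophagosomes, read 4.45, 4.45 and 6.10, against 3.04, 6.91 and 4.81. ATG14 read 3.28, 3.15 and 5.60, against 3.47, 7.29 and 5.81. Of these 3 genes of autophagy, ATG14 had the highest signal on synchronized array 3 relative to its dim arrays, by 2.34. RRAGC, a Rag GTPase of amino acid sensing at the lysosome, read 3.46, 3.46 and 5.52, against 3.47, 6.63 and 4.69 in synchronized embryos. JKAMP of protein disposal at the endoplasmic reticulum read 3.07, 3.66 and 5.91, against 3.85, 8.32 and 5.42. LAPTM4B, a lysosomal membrane protein, read 4.62, 4.82 and 7.25, against 4.33, 7.89 and 5.66, and was above log2 4 on every array. The remaining genes were UCHL1, the ubiquitin-conjugating enzyme gene UBE2G1, the deubiquitinase gene USP46, the F-box gene FBXO9, the ubiquitin-binding gene ZFAND5 and NTAQ1 of the N-degron pathway. In the list of 8 measured ubiquitin and C-terminal hydrolase genes UCHL1 was the only member and 1 gene passed: UCHL5, a deubiquitinase of the proteasome, was higher in the superovulated group at 3.82, 4.04 and 3.99, against 2.76, 2.81 and 2.72 in the synchronized group (difference 1.19, limma adjusted p = 0.0139). UCHL1 and UCHL5 thus followed different arrays.

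Membrane traffic genes numbered 7 and included the bright TM9SF2, a multispanning protein of endosomes and Golgi, at 6.27, 7.07 and 9.02 in the superovulated and 6.22, 10.38 and 8.04 in the synchronized group. ARF4, a Golgi GTPase, read 3.46, 4.69 and 7.68, against 5.27, 9.44 and 6.98. VAPA, a tether of the endoplasmic reticulum, read 3.11, 3.57 and 5.57, against 3.54, 7.34 and 5.20. In ARF4 and VAPA synchronized array 3 lay closer to superovulated array 3 than to the dim arrays. The clathrin heavy chain gene CLTC, the adaptor gene AP3M1, RAB14 and the translocon gene TRAM1 had margins of 1.51 to 1.67, and synchronized array 3 was within 0.45 of their highest dim array.

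Metabolism and transport genes numbered 11. SLC38A2, an importer of small neutral amino acids, read 4.83, 5.43 and 7.92 in superovulated embryos, against 5.52, 9.18 and 7.26 in synchronized embryos. PRDX6, a peroxiredoxin, read 3.54, 3.57 and 5.27, against 3.63, 6.69 and 4.86. GSTA4, which conjugates products of lipid peroxidation to glutathione, read 2.95, 2.88 and 5.29, against 2.98, 6.71 and 3.10, so synchronized array 3 lay with the dim arrays. ACLY, ELOVL4 and ELOVL5 of fatty acid synthesis and elongation, the ferredoxin gene FDX1 of steroid and heme metabolism, the sialic acid carrier gene SLC35A1, ALG13 of protein glycosylation, the inositol phosphate hydrolase gene NUDT11 and the phosphatase gene PHOSPHO2 had margins of 1.56 to 2.90. NUDT11 read 3.07, 3.35 and 6.32 in the superovulated and 3.42, 7.63 and 4.91 in the synchronized group. PHOSPHO2 read 3.47, 3.24 and 6.15 in the superovulated and 3.42, 7.36 and 5.19 in the synchronized group. In both, synchronized array 3 stood apart from the dim arrays.

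RNA handling genes numbered 7. PCBP1, an RNA-binding protein, read 3.87, 4.22 and 5.90 in the superovulated group, against 2.63, 6.81 and 4.26 in the synchronized group. The poly(A) polymerase gene PAPOLG, the kinase gene SRPK2 of splicing factors, RAMAC of mRNA capping, the transfer RNA methyltransferase gene METTL6, the nuclease gene REXO2 and IVNS1ABP had margins of 1.59 to 2.17. Of cytoskeleton and adhesion, the tropomyosin gene TPM1 and the integrin activator gene FERMT2 had 5.16 and 5.09 on superovulated array 3 and 5.25 and 6.40 on synchronized array 2. A further 7 genes were left without a role here. Among them LOC100848703, a long non-coding RNA in the gene table, read 5.19, 5.37 and 8.81 in superovulated embryos, against 5.38, 10.73 and 8.28 in synchronized embryos. Its signal on synchronized array 3 stood 2.90 above the dim arrays, the widest such excess of the 85. PARP12, of the family of ADP-ribosyltransferases, read 5.12, 5.50 and 8.29, against 4.27, 9.50 and 6.48 in synchronized embryos. CCDC181 read 2.97, 2.58 and 5.58, against 2.54, 6.24 and 3.14. Synchronized array 3 was thus intermediate for PARP12 and close to the dim arrays for CCDC181. Beside them stood YPEL5, FAM104A, MRFAP1L1 and LOC767968, with margins of 1.55 to 2.25.

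Other probe sets for the same transcripts gave limited further evidence. Of the 84 genes 42 had no further probe set, SERPINA14 had 2 members, and 41 had another that was not a member, 54 in all. A margin above 0 was found in 9 of those 54, against 7.76% of all probe sets. Of the 54, 45 never exceeded log2 4. Of the 9 that did exceed it, 6 had a margin above 0. Some of them passed log2 4 only on the bright pair, so this count is not set against all probe sets. The widest margin was that of RRAGC, at 2.38, 2.42 and 3.98 in superovulated and 2.49, 4.97 and 3.43 in synchronized embryos (margin 1.49). CLTC followed with 1.23 and FBXO9 with 0.95, while TCN2 (0.46), LOC282255 (0.23) and FERMT2 (0.20) had small margins. The other 3 had margins below 0: PRDX6 (-0.04), a second one of TCN2 (-0.34) and IVNS1ABP (-0.38). For these genes the probe sets thus disagree. HIF1A, SMARCA1 and UCHL1 had no further probe set in the table. Those of MSX1, PRICKLE1, PLOD2, TNFAIP6 and LDHA had margins between -0.52 and -0.01 and stayed below log2 4, so for these genes the pattern rests on 1 probe set. Of the members 6 are named as probe sets that can match several transcripts of a family, among them those of MSX1 and PARP12.

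Between the groups, none of the 85 passed the test. This follows in large part from the choice of members, which puts a bright and a dim array in each group. In limma 0 of 85 had an adjusted p below 0.05, 0 had an unadjusted p below 0.05, and the adjusted p ran from 0.636 to 1, against 0.716% of all probe sets called. The groups overlapped in every member by construction, whereas complete separation was seen for 13.3% of all probe sets. The superovulated mean was lower in 76 members and higher in 8, and the median difference was -0.56, against -0.02 for all probe sets and 0.59 for those with a mean above log2 4. PRICKLE1 had the widest difference, -2.75, with a 95% interval of -7.57 to 2.06 (adjusted p = 0.636, limma). For HIF1A the difference was -1.88, with an interval of -6.73 to 2.96. Such intervals, with a median width of 5.97 log2 units, leave the group difference of these genes unresolved in either direction. The median depended on each array. It was -0.15, -0.25 and -1.24 without superovulated arrays 1, 2 and 3 in turn, and -1.24, 0.40 and -0.88 without synchronized arrays 1, 2 and 3 in turn. It thus turned in sign without synchronized array 2, when 62 of the 85 had the higher mean in the superovulated group. Without superovulated array 3 and synchronized array 2 together it was -0.28.

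**Figure D4:**
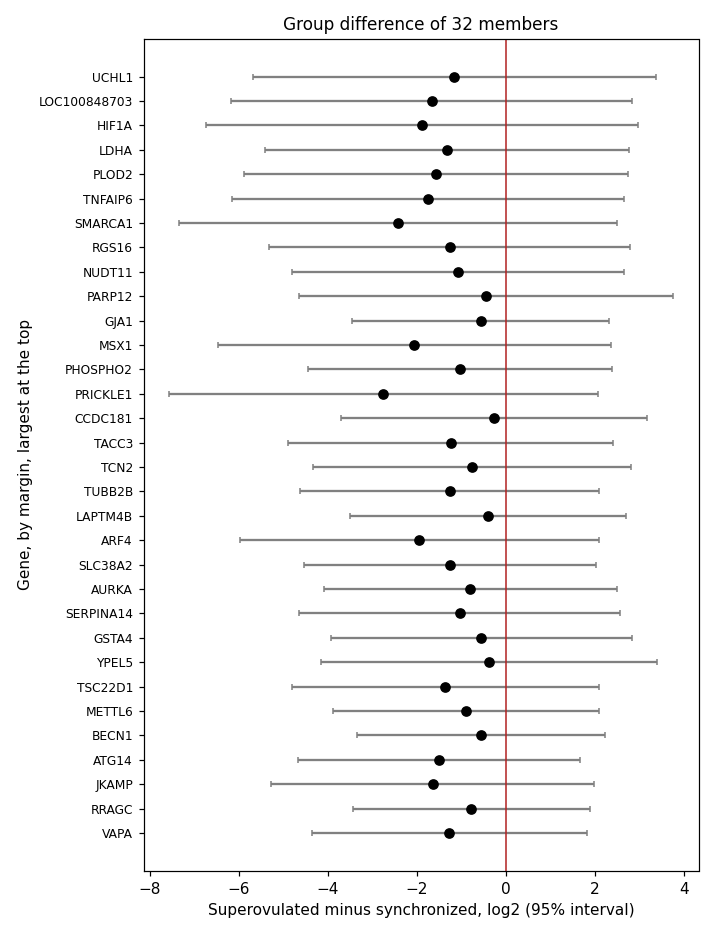
Superovulated minus synchronized difference (horizontal axis, log2) of the 32 members with a margin of at least 2, with points for the difference of the means of 3 arrays and bars for the 95% interval from limma. Every interval holds 0, from UCHL1 at the top to VAPA at the bottom.

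Within-group spread was correspondingly wide. The SD over 3 arrays had a median of 1.22 in the superovulated and 1.83 in the synchronized group for the 85, which the rule fixes, against 0.03 and 0.06 for all probe sets.

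Markers of other cell types were read beside the members. Of 24 measured genes of cumulus and granulosa cells 0 passed in either direction, with a median difference of -0.08. TNFAIP6 and INHA were members. The mean of the other 22 was 2.97, 2.93 and 2.98 in superovulated and 2.97, 3.15 and 2.96 in synchronized embryos, so superovulated array 3 lay close to the dim arrays and synchronized array 2 was slightly higher. PTX3, another protein of the expanded cumulus matrix, read 2.99, 2.94 and 3.87, against 3.01, 5.21 and 3.52. HAS2, which makes hyaluronan, read 3.78, 4.05 and 3.65, against 3.66, 3.44 and 3.58, and so did not share the pattern. PTGS2, by its brightest probe set, was higher on each superovulated array than on any synchronized one. It read 4.74, 4.47 and 3.88, against 2.86, 3.16 and 3.21 (margin -1.58, limma adjusted p = 0.175). The defining granulosa genes FSHR, LHCGR, CYP19A1, AMH and STAR, with 12 more of the list, stayed at or below log2 4 on all arrays by their brightest probe sets. Of these 12, VCAN had another probe set that read 4.26 on synchronized array 2.

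Of 14 measured oocyte and early cleavage genes 0 passed, with a median difference of -0.20. AURKA was a member. The mean of the other 13 was 2.94, 2.94 and 3.25 in the superovulated and 2.91, 3.67 and 3.02 in the synchronized group, highest on the bright pair. Among them GDF9, BMP15, NLRP5, OOEP and MOS stayed below log2 4 on all arrays, and NLRP5, OOEP and MOS were highest on synchronized array 2. PAIP1 read 4.57, 4.57 and 5.29 in superovulated and 3.37, 6.37 and 4.57 in synchronized embryos (margin 0.72). PLAT read 3.21, 3.15 and 4.10, against 3.12, 4.27 and 3.19 (margin 0.89). With AURKA, 6 of the 14 had a margin above 0, against 7.76% of all probe sets. Nothing is read from this count, since AURKA was chosen by that margin and CCNB1 is counted at only 0.06. Of the genes set aside by name, HMGCS1 (3.23), ZFP36L1 (2.98) and CKS1B (2.94) had the widest margins, and EED had 1.79 and CNOT7 1.54. The oocyte import factor gene KPNA7, also set aside, had a margin of 1.80. The zona genes ZP4 and ZP2 had margins of 1.44 and 1.39, while the zona gene ZP3 lay at background on every array (margin -0.03). ZP4 read 2.68, 2.67 and 4.15 in superovulated and 2.71, 5.35 and 2.76 in synchronized embryos. The part of cumulus, granulosa or oocyte RNA in the pattern was not tested.

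In the list of embryonic genome activation and blastocyst markers 2 of 23 measured genes passed, both higher in the superovulated group, 0 passed as lower, and 0 were members, with a median difference of 0.07. KRT18, the trophectoderm keratin, read 7.96, 8.11 and 7.74, against 3.55, 3.68 and 4.90 in the synchronized group. Superovulated array 3 and synchronized array 2, alike in HIF1A and MSX1, were therefore on opposite sides in KRT18. DAB2, an endocytic adaptor, did the same, with 4.87, 5.02 and 4.85 in superovulated and 2.32, 2.66 and 3.14 in synchronized embryos. Not all genes of the list went this way. A margin above 0 was found in 3 of the 23, against 7.76% of all probe sets. It was at least 1 in 1 gene, ATP1B1 (1.47), with 3.93, 3.91 and 5.40 in superovulated and 3.83, 5.60 and 4.78 in synchronized embryos. The oviduct and uterus list (13 genes, 1 higher and 0 lower, median -0.04), the blood and immune list (18 genes, 0 in either direction, median -0.04) and the stromal and endothelial list (17 genes, 1 higher and 0 lower, median -0.03) held no member. In the last 2 the array means lay between 2.71 and 2.93 in the superovulated and between 2.69 and 3.02 in the synchronized group. The uterine milk protein gene SERPINA14, a member by 2 probe sets, was not part of the oviduct and uterus list.

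**Figure D5:**
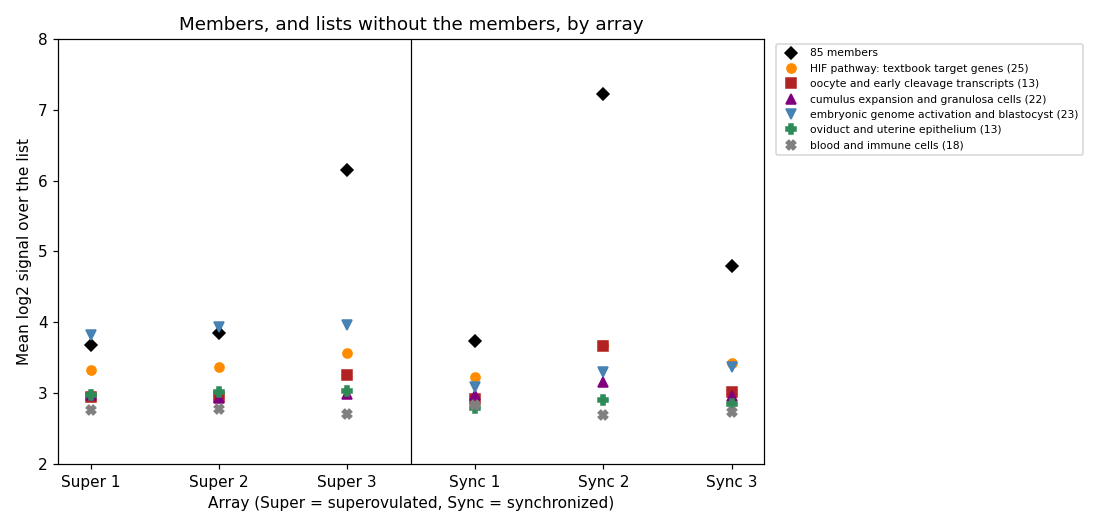
Mean log2 signal (vertical axis) on each of the 3 superovulated arrays (left) and 3 synchronized arrays (right) of the 85 members and of 6 gene lists without their members, with the number of genes averaged in brackets. The members range between 3.67 and 7.22, the oocyte list is highest on synchronized array 2 at 3.67, the cumulus list lies between 2.93 and 3.15 on all 6 arrays, and the blastocyst list is highest on the 3 superovulated arrays.

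The margin of 1.5 cuts a continuous range. Just inside it lay MRFAP1L1 (1.55), TRAM1 (1.53), DYNC1I2 (1.52), NTAQ1 (1.51) and RAB14 (1.51), and just outside LPL (1.49), the second RRAGC probe set (1.49), RTN3, WDR19 and ZFYVE1 (1.48 each). LPL, for example, read 2.94, 2.70 and 4.53 in superovulated and 3.04, 5.44 and 3.05 in synchronized embryos, much as NTAQ1 did with 2.83, 2.66 and 4.53 and with 3.02, 5.95 and 3.03. No probe set passed the same margin in the other direction, with the bright pair dim, and none did at a margin of 1.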

How the data were processed

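Day-7 blastocyst RNA was measured on the Affymetrix bovine array, with 3 arrays per group. The authors deposited 1 log2 signal for each probe set and array, computed by GCRMA per the submitters' processing notes, which name no version. Joint or separate normalization of the arrays is not stated. Depth does not apply, and the number of arrays limits the precision. The 112 control probe sets were set aside. Symbols came from the platform annotation; each of the 85 members matched an entry of the RefSeq table for assembly ARS-UCD2.0, used for names only.

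The group difference was fitted by limma (version 3.58.1, under R 4.3.3) with its moderated two-sided test and no covariate over 24016 probe sets, with Benjamini-Hochberg adjustment and a call at an adjusted p below 0.05. The procedure was tested on simulated data. The members, roles and gene lists were chosen with earlier results of these data known; lists used the brightest probe set per gene. Named were the 7 leading genes, the 20 widest margins, members held by a list, some list genes by p or call, and genes at the edge of the margin (not all with every array's value); other list genes, such as ARNT, VEGFA, HAS2, SMARCA5, DVL2, PLOD3 and ID3, were chosen after their values were seen. Alternatives covered scaling, filtering, variance models, the margin and each array left out. A planned search of promoter letters was not made, since promoter sequences were not used here.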

Additional observations from a re-analysis of the deposited data

Results flagged for a closer look

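A pair of control probe sets carries a signal that the group comparison does not read. The 3' control probe set of the initiation factor gene EIF4E was higher on each superovulated array than on any synchronized one, by 3.04 log2 units between the means, and that of GAPDH by 0.95. Neither follows the pattern of the 85 members. With 3 arrays a group, no group was large enough for a check on single outlying arrays.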

How the results depend on the processing

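All 85 members kept a margin above 0 under each of the 3 other scalings, but how many passed 1.5 depended on them: 26 after a second quantile normalization and 13 after centring each array on its bright probe sets, in place of 85, all of them members before. Among the 7 leading genes UCHL1, HIF1A, PLOD2, TNFAIP6 and, on centring only, SMARCA1 still passed, whereas MSX1 and PRICKLE1 passed neither, at 0.54 and 0.83 and at 1.24 each. A margin of 1 gave 196 and a margin of 2 gave 32. Synchronized array 3 exceeded the dim arrays in 156 of 196, 32 of 32, 26 of 26 and 13 of 13 under the margins of 1 and 2, quantile normalization and bright centring. The third scaling, centring each array on its median, gave 91, with all 85 among them. There synchronized array 3 exceeded the dim arrays in 75 of 91. Shares over all probe sets are not given for these settings. After bright centring 7 probe sets passed a margin of 1 the other way.

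Member calls were 0 under every setting run except bright centring, which gave 42; there limma estimated an infinite prior weight and so gave each probe set a common SD of 0.47, below the median within-group SD of 1.58 of the members. Calls over all probe sets, 172 at the chosen setting, were 28 after quantile normalization, 529 after bright centring, 441 among 1406 bright probe sets, 50 with an intensity trend, 515 with array weights, 456 at the looser threshold (adjusted p below 0.3, at least 2-fold), 26 to 137 with 1 array left out and 1 without superovulated array 3 and synchronized array 2 (the last and the looser threshold added after the data were seen). With the replicate number as a block limma made 0 calls, with 1382 probe sets at an unadjusted p below 0.05. The numbers do not pair the arrays: same-numbered arrays correlated at 0.54, -0.40 and -0.41 in their deviations, and superovulated array 3 with synchronized array 2 at 0.69. The cause of the other changes was not tested. GCRMA values near background limit the size of any margin.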

Other observations

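A further 42 probe sets without a gene symbol passed the same margin. In 42 of 42 synchronized array 2 was brighter than superovulated array 3, with a median gap of 1.09, against 61.5% of all probe sets. In 38 of 42 synchronized array 3 exceeded the 3 dim arrays, against 43.1% of all probe sets. These probe sets were chosen by the same margin on the same arrays, so they are no separate evidence. They are unnamed here and belong in no comparison above.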
